A study of Bos taurus with 3 samples.

Results

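The miRNAs of the miR-23, miR-27 and miR-24 clusters were followed in small RNA from large dense-core vesicles of bovine chromaffin cells. They were chosen by name, as every annotated arm and hairpin of miR-23a, miR-23b, miR-24, miR-27a and miR-27b, by a rule that uses names alone. This gave 8 of the 793 annotated mature miRNAs, from 6 hairpins and in 9 of the 919 rows of the count table. The series held 3 libraries, 1 labelled a biological replicate and 2 labelled technical replicates, all from cow adrenal gland medulla obtained at a local slaughter. The labels give no treatment, genotype, age or number of animals, and do not say which step the technical replicates repeat. Chromaffin cells secrete catecholamines into the blood, and their large dense-core vesicles store these hormones together with peptides. Means and standard deviations (SD) are over n = 2 preparations, with the technical libraries averaged first. The technical pair was taken as 1 preparation and the biological replicate as another, which the labels do not state. No whole-cell library was analysed here, so the values describe the vesicle preparations and show no enrichment over the cell.

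miRNAs of the miR-23, miR-27 and miR-24 families are transcribed together from paralogous clusters, in the order miR-23, miR-27, miR-24, and are cut from a common primary transcript. The paralogs miR-23a and miR-23b share a seed, the stretch that pairs with target mRNAs, as do miR-27a and miR-27b, while miR-24 has a seed of its own and comes from both clusters with the same mature sequence. In mammals miR-23a and miR-23b are known to act on glutaminase downstream of MYC, miR-27a and miR-27b on PPARG in adipocytes, and miR-24 on cell cycle genes, and the clusters are known from endothelial cells, where they act in angiogenesis. In the RefSeq gene table (assembly ARS-UCD2.0, which is not the build of the counts, so only names and neighbours were used) all 6 hairpins were found. MIR23A, MIR27A and MIR24-2 were direct neighbours within the span of LOC132345691 and before ZSWIM4. MIR23B, MIR27B and MIR24-1 were direct neighbours within the span of AOPEP, an aminopeptidase gene, and between MIR2475 and FANCC. miR-2475, the next annotated hairpin beside miR-23b, had 3 counts in the biological replicate and 2 and 0 counts in technical replicates 1 and 2, against 55617 counts of miR-23b-3p in the biological replicate.

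With each mature miRNA counted once, the libraries held 6708654 counts (biological replicate) and 5546771 and 6251664 counts (technical replicates 1 and 2). Levels are given as CPM, in which each library is scaled to the same total. A count of 0 allows up to 3 counts, which is 0.447 to 0.541 CPM. Intervals and limits cover counting error only. Each read stands for a mature miRNA, so no length scaling was applied, and levels of different miRNAs were not calibrated against each other.

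The 8 miRNAs together held 5.34% ± 0.240 (SD, n = 2) of all miRNA counts. Their share was 5.17% in the biological replicate (exact Clopper-Pearson 95% interval 5.15 to 5.19%), against 5.510% in technical replicate 1 (5.49 to 5.53%) and 5.510% in technical replicate 2 (5.49 to 5.53%). The technical libraries overlapped and the biological library lay below both. This order is relative to a total of which miR-375 held more in the biological replicate. Its level there was 416586 CPM, compared with 381396 and 358079 CPM in technical replicates 1 and 2. With miR-375 left out of the total the share was 8.80% ± 0.0824 (SD, n = 2). The biological library then lay between the technical ones. Nearly all counts of the members came from 5 products, 1 for each name, and the other 3 products held 0.00751% ± 0.00171.

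miR-27b (MIMAT0003546) was the most abundant member and ranked 6 in the biological replicate and 7 and 8 in technical replicates 1 and 2. Its level was 24662 CPM in the biological replicate, with 24644 and 24998 CPM in technical replicates 1 and 2, a mean of 24741 ± 113 CPM (SD, n = 2). The biological library thus lay between the technical ones. Next to it in level stood miR-101 above, at a mean of 28783 CPM over the 3 libraries, and miR-26a below, at 23845 CPM.

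Both miR-23 paralogs followed at similar levels and were lower, as a share of counts, in the biological replicate. miR-23a (MIMAT0003827) had 8991 CPM in the biological replicate, compared with 10759 and 10842 CPM in technical replicates 1 and 2. miR-23b-3p (MIMAT0003852) had 8290 CPM in the biological replicate, compared with 9789 and 9711 CPM in technical replicates 1 and 2. For both, the biological library was below a technical pair that differed little. miR-23a averaged 9896 ± 1280 CPM and miR-23b-3p 9020 ± 1032 CPM (SD, n = 2). miR-23a was the higher of the pair in all 3 libraries, by 876 ± 247 CPM (SD of the difference within libraries, n = 2), although the SD of each level between preparations was larger than this difference. By the mean over the 3 libraries, miR-99a-5p stood next above miR-23a, let-7i between the paralogs, and miR-25 next below miR-23b-3p. let-7i had 10965 CPM in the biological replicate, above both paralogs, and 9003 and 10162 CPM in technical replicates 1 and 2, so its place in the order differed between libraries.

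miR-24-3p (MIMAT0003840) had 6333 CPM in the biological replicate, compared with 6130 and 5753 CPM in technical replicates 1 and 2, a mean of 6137 ± 277 CPM. The biological library was the highest, but the technical replicates lay further from each other than the biological replicate lay from technical replicate 1. Its counts on the hairpins miR-24-1 and miR-24-2 differed by 23 in the biological replicate and by 15 and 19 in technical replicates 1 and 2, at most 0.0541% of the larger row. The same reads were thus counted at both hairpins, and these counts do not tell which cluster a miR-24-3p read came from. let-7f and miR-125a were its neighbours in mean level over the 3 libraries.

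miR-27a-3p (MIMAT0003532) was the least abundant of the 5 main products. It had 3337 CPM in the biological replicate, compared with 3713 and 3732 CPM in technical replicates 1 and 2, a mean of 3530 ± 272 CPM. The biological library was below the technical pair. miR-30a-5p and let-7a-5p stood next to it by the same mean. Apart from the miR-23 pair, each step in this order was larger than the summed SDs of the 2 levels it separates and was found in all 3 libraries.

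The remaining products were scarce. The hairpin miR-24-1 has a second product, listed as miR-24 with no arm in its name (MIMAT0009250) and called the second miR-24-1 product here. It had 455 counts in the biological replicate, against 299 and 315 counts in technical replicates 1 and 2. miR-27a-5p (MIMAT0012532), the opposite arm of the miR-27a hairpin, had 129 counts in the biological replicate, against 52 and 75 counts in technical replicates 1 and 2. The second miR-24-1 product averaged 60.0 ± 11.1 CPM (SD, n = 2), and miR-27a-5p was lower in every library. In both the biological library was above the technical pair. miR-23b-5p (MIMAT0012538) had 1 count in the biological replicate and 2 and 0 counts in technical replicates 1 and 2, at or under the limit of 3 counts, so no difference could be detected for it at this depth.

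**Figure D1:**
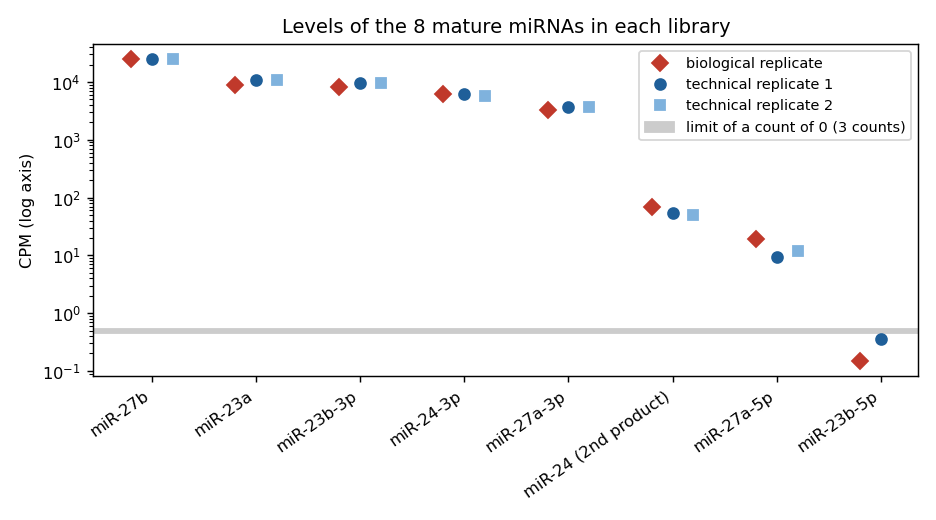
CPM on a log axis of each mature miRNA, in order of mean level, with a point for each library and a grey band for the limit of a count of 0 (0.447 to 0.541 CPM). The 5 main products lie between 3337 and 24998 CPM, the second miR-24-1 product and miR-27a-5p lie 2 or more orders of magnitude lower than miR-23a, and miR-23b-5p lies under the limit, with its count of 0 in technical replicate 2 not drawn.

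Within the clusters the levels ran in opposite orders. In the miR-23b cluster miR-27b exceeded miR-23b-3p, at 2.97 miR-27b reads for each miR-23b-3p read in the biological replicate, against 2.52 and 2.57 in technical replicates 1 and 2. In the miR-23a cluster miR-27a-3p was below miR-23a, at 0.371 miR-27a-3p reads for each miR-23a read in the biological replicate, against 0.345 and 0.344 in technical replicates 1 and 2. The order of miR-23 and miR-27 thus differed between the clusters, and within each cluster it was the same in every library. miR-23b-3p and miR-27b together held 3.38% ± 0.114 of the counts, and miR-23a and miR-27a-3p held 1.34% ± 0.155 (SD, n = 2). These sums and the orders within clusters depend on how reads were divided between paralogs of nearly the same sequence, which is uncertain. By seed, the miR-27 pair held 2.83% ± 0.0385 and the miR-23 pair 1.89% ± 0.231, while miR-24-3p held 0.614% ± 0.0277.

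**Figure D2:**
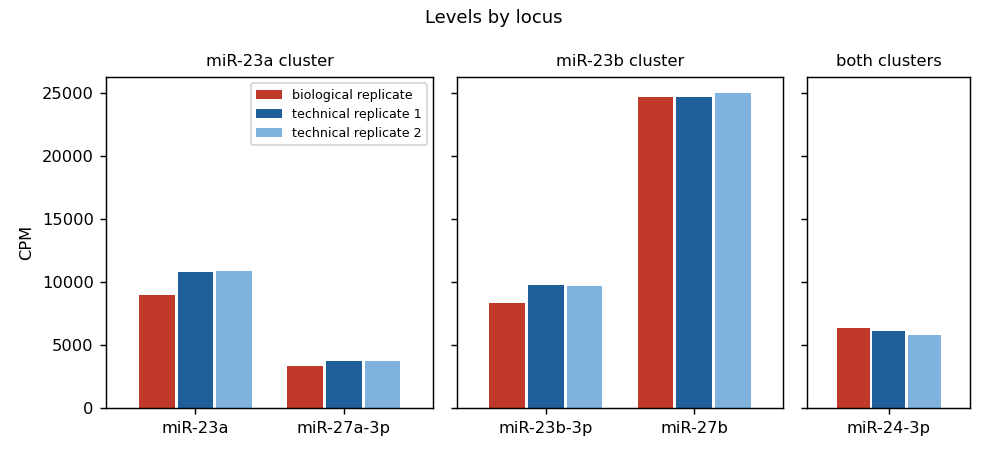
Bars from 0 give the CPM of the main product of each hairpin, by cluster and library, with miR-24-3p apart because it comes from both clusters. miR-27b stands at 24644 to 24998 CPM beside miR-23b-3p at 8290 to 9789 CPM, whereas miR-27a-3p, at 3337 to 3732 CPM, stands below miR-23a.

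The libraries were compared to see how far these levels repeat between preparations. Of the 7 members with at least 10 counts in a library, 3 were higher in the biological replicate than in the technical pair, none was lower and 4 did not pass (quasi-likelihood test of edgeR, p below 0.05 after Benjamini-Hochberg adjustment). miR-23b-5p was not tested. Over all 367 miRNAs tested 37.9% passed, made up of 17.7% that were higher and 20.2% that were lower, so the members' number of calls was near that of miRNAs in general. The median log2 fold change was 0.17 for the members and 0.013 for all miRNAs tested. Only the technical pair gave this test its spread, with 1 residual degree of freedom for each miRNA. That spread was pooled over all miRNAs tested, so SEs and p-values rest mostly on the pooled value and not on each miRNA's own pair. The p-values thus set the difference between these libraries against the spread of technical libraries alone. That difference may itself be technical, and the p-values say nothing of animals.

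The members that rose were miR-27a-5p, the second miR-24-1 product and miR-24-3p. miR-27a-5p had a log2 fold change of 1.02 ± 0.22 (SE) with an adjusted p of 2.7e-05 (edgeR). The second miR-24-1 product had a log2 fold change of 0.56 ± 0.14 (SE, adjusted p of 5.3e-04, edgeR), and miR-24-3p one of 0.27 ± 0.10 (SE, adjusted p of 0.024, edgeR). The miR-24-3p call held in no tested alternative except with every hairpin row fitted, and its adjusted p ran from 0.016 to 0.48 over the alternatives (edgeR or DESeq2). The second miR-24-1 product did not pass with library totals (edgeR, adjusted p of 0.059) or in DESeq2 (0.084), with a range from 1.9e-04 to 0.084. miR-27a-5p did not pass in DESeq2 (adjusted p of 0.098, with a range from 6.7e-07 to 0.098), where 27.1% of the 310 miRNAs given an adjusted p passed, but none of the 7 members did (0 at the adjusted threshold in DESeq2, 3 with an unadjusted p below 0.05, and 3 passing in edgeR). With library totals only miR-27a-5p passed among the members, beside 30% of all miRNAs. Among the 5 members of at least 100 CPM, fitted with the other miRNAs of that level, 0 passed in edgeR and 1 had an unadjusted p below 0.05, beside 41.9% of all.

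The 4 members that did not pass were the paralogous pairs of miR-23 and miR-27. Their log2 fold changes were -0.08 ± 0.11 for miR-23a and -0.05 ± 0.11 for miR-23b-3p. miR-27a-3p had 0.02 ± 0.10 and miR-27b 0.17 ± 0.13 (SE), and the adjusted p-values of these 4 lay between 0.31 and 0.88 (edgeR). These values are relative to TMM scaling, which placed the biological library higher than its count total does. With library totals all log2 fold changes moved by a median of -0.18. miR-23a then had -0.26 ± 0.08 (SE) and miR-23b-3p -0.23 ± 0.08 (edgeR, adjusted p of 0.053 and 0.074), and the signs of miR-27a-3p (-0.16) and miR-27b (-0.0093) turned. In plain CPM, 6 of the 7 members lay outside the technical pair, 3 above and 3 below, as did 83.7% of all miRNAs tested, 24.5% above and 59.1% below.

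**Figure D3:**
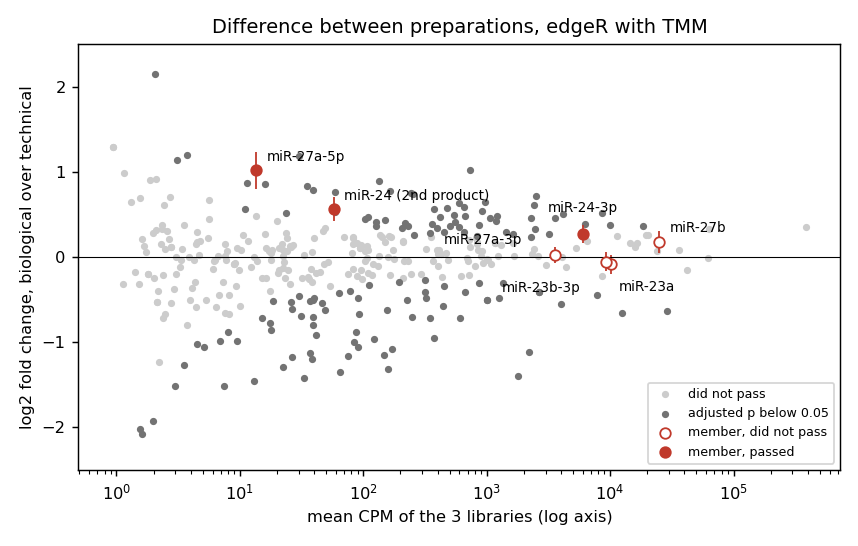
Log2 fold change of the biological replicate over the technical pair against mean CPM (log axis) for the 367 miRNAs tested, with the members in red (filled where the adjusted p was below 0.05, bars for SE); 1 miRNA lies outside the axis limits of 2.5. miR-27a-5p stands at 1.02 and the second miR-24-1 product at 0.56, while the 4 miR-23 and miR-27 main products lie between -0.08 and 0.17.

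Ratios of members within a library do not depend on the scaling, and that of the miR-23 paralogs differed least between libraries among the ratios given here. miR-23b-3p made up 48.0% of the miR-23 pair in the biological replicate (exact 95% interval 47.7 to 48.3%), against 47.6% (47.3 to 47.9%) and 47.2% (47.0 to 47.5%) in technical replicates 1 and 2. The intervals of the biological replicate and technical replicate 1 overlapped, while that of technical replicate 2 lay below that of the biological replicate. miR-27b made up 88.1% of the miR-27 pair in the biological replicate (87.9 to 88.2%), against 86.9% (86.7 to 87.1%) and 87.0% (86.9 to 87.2%) in technical replicates 1 and 2. Here the technical libraries overlapped and the biological library lay above both, by a log2 ratio of 0.15. Since the paralogs of a pair have nearly the same sequence, how the reads were divided between them is uncertain.

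miR-24-3p and both miR-27 paralogs were higher in relation to miR-23 in the biological replicate. miR-24-3p had 0.704 reads for each miR-23a read in the biological replicate, against 0.570 and 0.531 in technical replicates 1 and 2. For each miR-23b-3p read it had 0.764 in the biological replicate, against 0.626 and 0.592 in technical replicates 1 and 2. The log2 differences of these ratios from the technical pair, 0.36 and 0.33, were larger than those between the technical replicates, 0.10 and 0.080. The ratio of miR-27b to miR-23b-3p differed by 0.22 and that of miR-27a-3p to miR-23a by 0.11, beyond technical differences of -0.032 and 0.0038 on the log2 scale. Against miR-27a-3p, miR-24-3p differed by 0.25, more than the technical difference of 0.099. Against miR-27b, miR-24-3p differed by 0.10, no more than the technical difference of 0.11. No test across preparations was made of these ratios, since 3 libraries allow none.

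**Figure D4:**
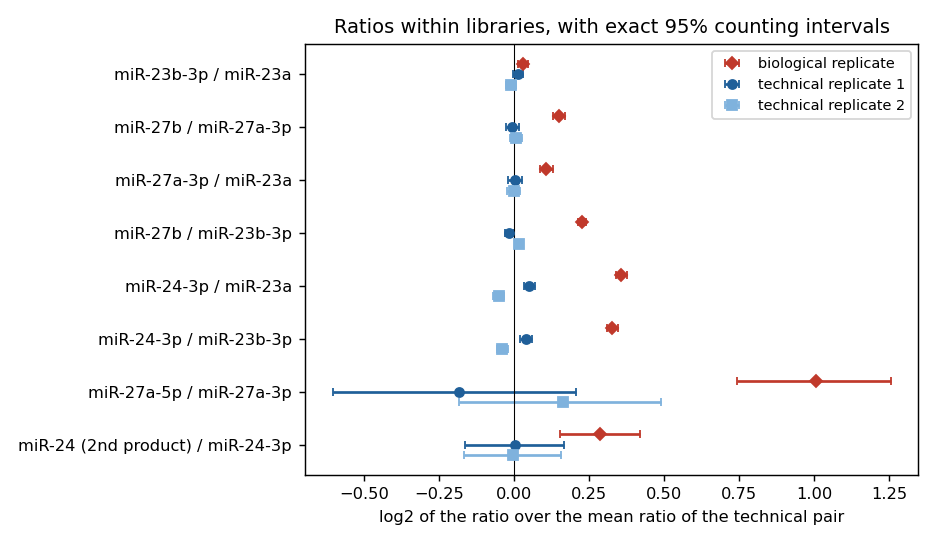
Log2 of each ratio of members, relative to the mean ratio of the technical pair, with exact 95% counting intervals as bars and 1 point for each library. The biological replicate stands at 0.03 for miR-23b-3p over miR-23a, at 0.36 for miR-24-3p over miR-23a and at 1.01 for miR-27a-5p over miR-27a-3p, where counting error is widest.

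The opposite arm of miR-27a rose while its main arm did not pass. miR-27a-5p made up 0.573% of the reads of the miR-27a hairpin in the biological replicate (exact 95% interval 0.479 to 0.680%), against 0.252% (0.188 to 0.330%) and 0.320% (0.252 to 0.402%) in technical replicates 1 and 2. The technical intervals overlapped each other and not that of the biological replicate, and the ratio of the arms was 2.01 times that of the technical pair. The second miR-24-1 product made up 1.06% (0.965 to 1.16%) in the biological replicate, against 0.872% (0.776 to 0.976%) and 0.868% (0.775 to 0.969%) in technical replicates 1 and 2. Its intervals overlapped between the biological replicate and both technical ones, and its main product includes reads from miR-24-2. On the miR-23b hairpin, miR-23b-5p made up 0.0018% in the biological replicate, against 0.0037% and 0% in technical replicates 1 and 2, where a count of 0 allows up to 0.00494%. Only 1 product each was listed for the hairpins of miR-23a, miR-27b and miR-24-2.

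Differences of this kind were common among hairpins. Of 36 hairpins with 2 listed mature miRNAs and a mean of at least 10 counts for the scarcer one, the ratio of scarcer to main product lay outside the technical pair in 86.1% and above it in 36.1%, and both member hairpins counted here lay above. The median absolute log2 difference was 0.46, against 0.17 between the technical replicates. miR-27a, at 1.01, had the second highest value of the 36, after miR-2419, and ranked 5 by absolute size, as 3 hairpins (miR-193a, miR-2483 and miR-99a) differed further downward. For miR-2419 the scarcer product averaged 13 counts and the technical libraries differed by 1.72 on the log2 scale. miR-24-1, at 0.29, ranked 11 by signed value and 26 by absolute size, and was below the median absolute difference. In some of the 36 the listed miRNAs are related names and not opposite arms.

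**Figure D5:**
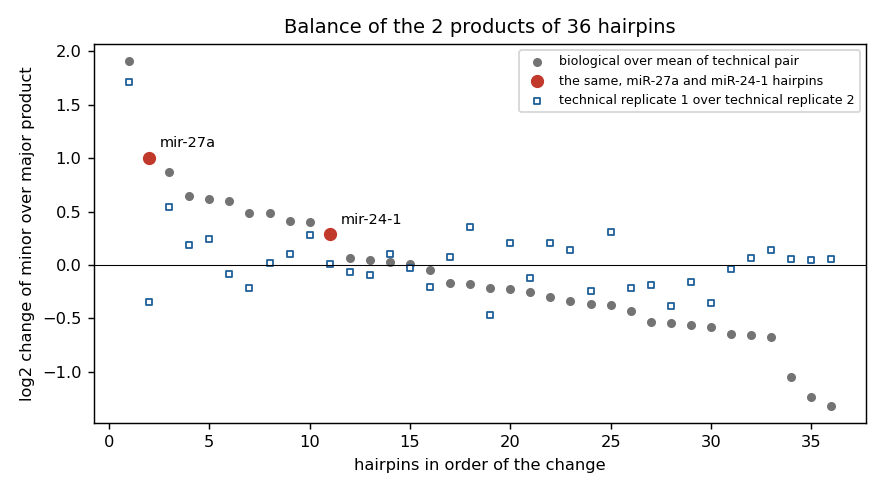
Log2 change of the ratio of scarcer to main product for 36 hairpins in order of the change (filled points, biological replicate over the mean of the technical pair) and the log2 ratio of technical replicate 1 over technical replicate 2 (open squares). miR-27a stands second at 1.01 with a technical difference of -0.35, and miR-24-1 stands at 0.29 with 0.0060.

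Other families with more than 1 locus gave the following counts in the same test, in which 17.7% of all 367 miRNAs were higher and 20.2% lower. In the miR-29 family 3 of 5 tested members were lower, none was higher and the median log2 fold change was -0.41. In the miR-181 family 2 of 4 were higher, none was lower and the median was 0.32. In the miR-15/16 family 2 of 6 were lower, none was higher and the median was -0.03 (all edgeR). The difference between families was not tested.

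miRNAs known from cells that may accompany chromaffin cells differed between the preparations. The counts below stand beside 17.7% higher and 20.2% lower among all 367 miRNAs of the same test. The libraries hold RNA of vesicle preparations, so these differences cannot be read as differences in cells. Fewer cells of a type and less RNA per cell cannot be told apart either. Both arms of miR-126, known from endothelium, fell by 0.49 and 0.71 on the log2 scale, and their summed level was 1130 CPM in the biological replicate, compared with 1820 and 1888 CPM in technical replicates 1 and 2. In the smooth muscle and fibroblast list miR-199a-3p and miR-199c had identical counts, and with these counted once 5 of 6 members were lower. Its summed level was then 10249 CPM in the biological replicate, compared with 16827 and 18867 CPM in technical replicates 1 and 2. Most of it was miR-143, at 8205.5 CPM in the biological replicate, compared with 13712.5 and 15656.5 CPM in technical replicates 1 and 2. miR-145, which did not pass, had 11 counts in the biological replicate and 14 and 12 in technical replicates 1 and 2. In the leukocyte list 2 of 5 tested members, miR-146a and miR-142-5p, were lower. The summed level was 123 CPM in the biological replicate, compared with 281 and 280 CPM in technical replicates 1 and 2. Most of it was miR-146a, at 72.1 CPM in the biological replicate, compared with 202.1 and 204.1 CPM in technical replicates 1 and 2. miR-142-3p, miR-150 and miR-155 did not pass. miR-223 was not tested and had 7 counts in the biological replicate and 7 and 6 in technical replicates 1 and 2. In the erythrocyte list 1 of 2 tested members, miR-486, was higher, with 1097 CPM in the biological replicate, compared with 898 and 837 CPM in technical replicates 1 and 2 for the summed list. This sum is nearly all miR-486, while miR-451, the best known miRNA of red blood cells, had 16.8 CPM in the biological replicate and 23.6 and 20.2 CPM in technical replicates 1 and 2, and its test did not pass. miR-144 had 4 counts in the biological replicate and 5 and 6 in technical replicates 1 and 2. The endocrine miRNAs miR-375 and miR-7, the chromaffin list, made up 47.3% of counts in the biological replicate, against 44.1% and 42.8% in technical replicates 1 and 2, and neither miRNA passed. Most of this sum was miR-375, at 416586 CPM in the biological replicate, compared with 381396 and 358079 CPM in technical replicates 1 and 2. miR-7 went the other way, at 56414 CPM in the biological replicate, compared with 59224 and 70296 CPM in technical replicates 1 and 2. No defining marker was at 0 in any library. The part of these cell types in the levels of the clusters was not tested.

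The miRNAs most like each main product over the 3 libraries were found among 162 others with a mean of at least 100 CPM, by the root mean square difference of log2 CPM after centring. miR-27b was closest to miR-16a (0.0077) and miR-106b (0.016). miR-24-3p was closest to miR-409a (0.0046), of the imprinted DLK1-DIO3 region, and to miR-191 (0.0061). miR-23a was closest to miR-99b (0.014) and miR-3432a (0.017), and miR-23b-3p to miR-3432a (0.013) and miR-378 (0.019). miR-27a-3p was closest to miR-411c-5p (0.013) and miR-152 (0.018). miR-99b, for example, had 3817 CPM in the biological replicate, compared with 4680 and 4669 CPM in technical replicates 1 and 2, a relation between the libraries close to that of miR-23a at a lower level. Over 3 libraries, 2 of them a technical pair, such likeness describes little more than the difference between preparations.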

How the data were processed

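Raw read counts per mature miRNA and hairpin were deposited for 3 libraries. Per the labels, these were made from total RNA of purified vesicles (500 ng each) with a small RNA kit. The submitters' processing notes name build UMD3.1 and edgeR, and no source used here gives the aligner or counting tool. The CPM columns by the authors equal count over column total to 2 decimals. The log2 CPM table by the authors (459 rows, 7 of the 8 members, without miR-23b-5p) was used only to see which members it kept. For the 73 mature miRNAs with several rows, the largest row was kept.

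The test of the biological library against the technical pair used edgeR 4.0.16 (R 4.3.3, TMM, quasi-likelihood) on 367 miRNAs that reached 10 counts in some library, with Benjamini-Hochberg adjustment over all of them. SEs follow from the fold and its F value. DESeq2 1.42.0, other scalings, filters and row treatments were alternatives. Shares and ratios carry exact binomial 95% intervals. For hairpins with 2 listed miRNAs, 6 pairs with identical counts were left out. Members, lists and rules were chosen with earlier results of these data known. All members are named, with their neighbours in level and the 2 most like each at a mean of 100 CPM or more. miR-2475, miR-2419, miR-193a, miR-2483 and miR-99a were named after their values were seen.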

Additional observations from a re-analysis of the deposited data

How the results depend on the processing

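Of 7 members tested, 3 passed. With library totals 1 passed, in DESeq2 0 passed (3 with an unadjusted p below 0.05), and 0 passed with only miRNAs of at least 100 CPM fitted by edgeR (1 unadjusted, with miR-27a-5p and the second miR-24-1 product under that level). The other alternatives gave 2 or 3 members, with miR-24-3p counted once where both its rows passed. The alternative without miR-375 was chosen after seeing the data. No member passed as lower in any, and the cause of the lost calls was not tested. Over all miRNAs 139 passed, against 84 in DESeq2 and 70 of 167 at 100 CPM. The log2 fold change of miR-27a-3p turned to -0.16 with library totals, -0.12 at 100 CPM, -0.0051 without a filter and -0.016 without technical replicate 2 (0.042 without technical replicate 1), and that of miR-27b to -0.0093 with library totals. The share of the 8 miRNAs was 4.52% with rows summed, 4.05% of all rows and 8.80% without miR-375 in the total. With rows summed, the miR-23a cluster held 1.02%, the miR-23b cluster 2.56%, and the second miR-24-1 product had 0.00487 reads for each miR-24-3p read, against 0.00974, because miR-24-3p then counts its reads at both hairpins. With a library left out the share lay between 5.34% and 5.51%, and miR-27a-5p had between 0.00287 reads (without the biological replicate) and 0.00449 reads (without technical replicate 1) for each miR-27a-3p read, against 0.00432. With 2 preparations the move on leaving out the biological replicate is bounded by the SD, and none of these moves measures stability. Leaving out a technical library gave values with no test. No paired analysis was possible because the groups share only 1 replicate number. Depth limits miR-23b-5p and, at 52 to 129 counts, miR-27a-5p.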
